A study of Mus musculus with 10 samples.

Results

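Mammary epithelial cells (MECs) from mice whose macrophages lack C/EBPβ were compared with MECs from wild-type (WT) controls, across all genes and with most attention to those outside the Wnt, RANKL and stem cell genes. The comparison uses 4 of the 10 libraries of the series, *Cebpb*ΔM 1 and 3 against WT 1 and 3, and the other 6 libraries come from mammary macrophages. Of 55487 genes in the count table, 15698 were tested, those of at least 300 nt with over 1 CPM (a count scaled to the total of its library) in at least 2 of the 4 libraries. WT controls were *Cebpb* fl/fl mice without *Csf1r*-iCre, and *Cebpb*ΔM mice were *Cebpb* fl/fl with *Csf1r*-iCre, so both genotypes carry the floxed alleles. All were females of 10 wk in diestrus, on a BALB/c background. The *Csf1r* promoter drives Cre in myeloid cells, so the epithelial cells themselves were not the target of the deletion. MECs were obtained from digested glands as organoids, made into single cells and depleted of lineage-positive cells. The labels do not say whether the libraries of a genotype are separate animals or pools, so *P* values measure the spread between these libraries, which may be partly technical.

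The mammary duct has an inner luminal layer, with hormone-sensing cells and secretory progenitors, and an outer basal layer of contractile myoepithelial cells. In diestrus, progesterone acts on the hormone-sensing cells, which pass the signal to their neighbors by secreted factors. Macrophages lie along the ducts and in the stroma, and take part in remodeling of the gland over the cycle.

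The 4 MEC libraries held 25310926 to 27008166 counts, so that 3 counts in a library amount to 0.111 to 0.119 CPM. The luminal keratins *Krt8* (9220 to 12320 CPM) and *Krt18* (7096 to 9512 CPM) and the basal keratin *Krt14* (1926 to 2284 CPM) were abundant in each library, with overlapping genotypes. Summed CPM over 12 macrophage markers was 233 to 387 in MECs and 9541 to 16622 in the macrophage libraries. In MECs 87.1% of it was *Cd14*, which is also in the luminal progenitor list, and the other 11 markers summed to 52.0 and 47.6 CPM in *Cebpb*ΔM and 33.3 and 31.7 CPM in WT, with no overlap. Lymphocyte markers summed, without TMM scaling as for every list sum, to 9.21 to 11.2 CPM, whereas 10 fibroblast markers summed to 4981 to 6522 CPM in MECs. *Dcn*, which encodes the matrix proteoglycan decorin, had 2776 and 2006 CPM in *Cebpb*ΔM and 1220 and 1243 CPM in WT. It and *Fbln1* were the fibroblast markers higher at an unadjusted *P* under 0.05, whereas 4 of the 10 had a log2 difference above 0 and the median was −0.20, or 0.13 without *Cebpb*ΔM 1. *Col1a1*, a chain of type I collagen, had 1040 and 1714 CPM against 2358 and 1714 CPM. The part of macrophages and fibroblasts in the other results was not tested. *Cebpb* itself had 69 and 42 counts in *Cebpb*ΔM MECs and 25 and 28 in WT MECs. In macrophages it had 4 to 16 counts in *Cebpb*ΔM and 13 and 15 in WT, so the genotypes overlapped at this depth and the count of *Cebpb* is no check of the labels. *Tmem189* overlaps *Cebpb* on the other strand.

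Library *Cebpb*ΔM 1 stood apart. It lay at −45.9 on the first principal component, which held 43.8% of the variance, against 12.1, 12.8 and 21.1 for the others. Between the *Cebpb*ΔM libraries 1178 genes differed by over 2-fold, against 730 between the WT libraries and 670 between *Cebpb*ΔM 3 and WT 3. In *Cebpb*ΔM 1 the longest 10% of genes lay 0.20 (log2) below the median of the 4 libraries, and in *Cebpb*ΔM 3 it lay 0.11 above. The part of transcript length or RNA quality in the results was not tested. Of 215 genes chosen by the naming rules 22 moved by over 1.5-fold without this library, and 44 without one or another of the 4.

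At an adjusted *P* of 0.05 or less, edgeR's quasi-likelihood test called 8 genes (0.051% of those tested), of which 7 rose in *Cebpb*ΔM MECs (0.0446%) and 1 fell (0.00637%). Those described here encode the angiotensin II receptor (*Agtr1a*), the spermidine synthase (*Srm*), a cornified envelope protein (*Sprr2a3*), a secreted protease (*Klk4*), the cytokine RANKL (*Tnfsf11*) and the signaling peptides calcitonin/CGRP (*Calca*). The gene that fell, *Gm20412*, lies within *Tgm2* on the opposite strand. The count of calls varied with the test, and was 0 with no filter on low counts (0.0%) and 179 (1.14%) with the likelihood ratio test that the methods of the study name. Without WT 3 edgeR called 5 genes, of which *Tnfsf11* was the one among the 8, and without *Cebpb*ΔM 1 or without *Cebpb*ΔM 3 the 5 of the 8 that passed the filter were called. The direction of each of the 8 was kept under every alternative fit of the 4 or the 10 libraries.

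**Figure D1:**
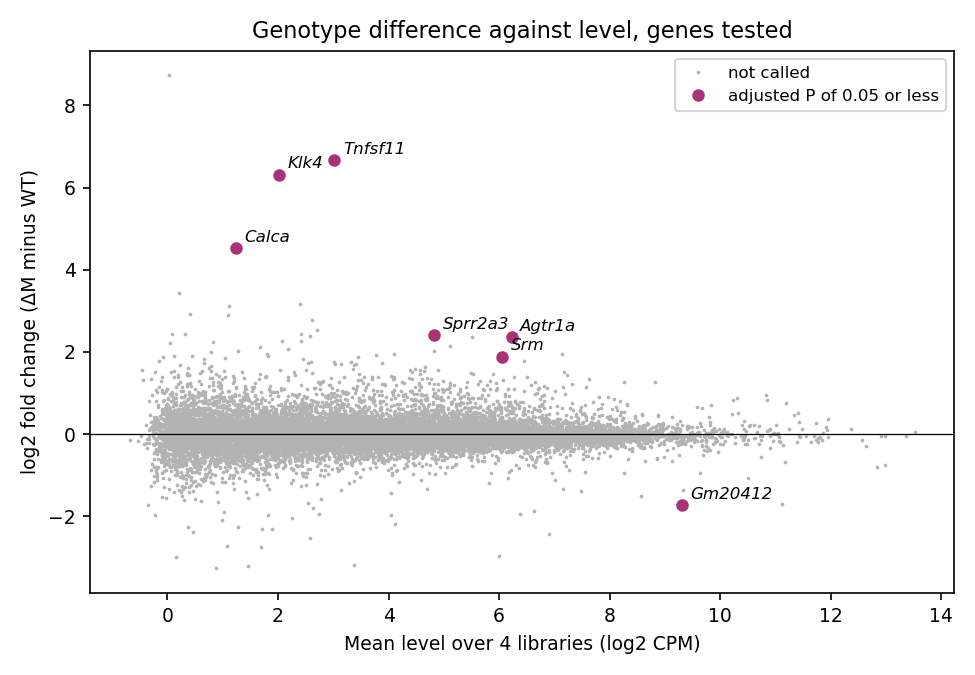
Log2 fold change between genotypes (*Cebpb*ΔM minus WT) against mean level (log2 CPM over the 4 libraries) for the genes tested, without 2 that are not reported here. Of the called genes 7 are shown and named, and 6 of them lie above 0.

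*Agtr1a*, the receptor through which angiotensin II raises vascular tone and acts on several epithelia, had 138 and 114 CPM in *Cebpb*ΔM and 31.3 and 17.7 CPM in WT. Both *Cebpb*ΔM libraries were well above both WT libraries. The difference was 5.15-fold (log2 2.37 ± 0.28 SE, adjusted *P* = 0.0135, edgeR).

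*Srm* makes spermidine from putrescine, a polyamine that growing cells require. Its level was 132 and 77.5 CPM in *Cebpb*ΔM and 26.2 and 30.5 CPM in WT, with no overlap. The difference was 3.70-fold (log2 1.89 ± 0.27 SE, adjusted *P* = 0.0405, edgeR), and the log2 difference was 1.45 without *Cebpb*ΔM 1.

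*Sprr2a3*, a small proline-rich protein of the cornified envelope and of mucosal epithelia, had 1012 and 1491 counts in *Cebpb*ΔM and 263 and 206 in WT. Here *Cebpb*ΔM 3 was the higher library. The difference was 5.30-fold (log2 2.41 ± 0.27 SE, adjusted *P* = 0.0111, edgeR). Its near-identical neighbors *Sprr2a1* (22, 29, 5 and 7 counts in *Cebpb*ΔM 1 and 3 and WT 1 and 3) and *Sprr2a2* (0 to 4 counts) received few reads, and since the counting required a mapping quality of 10 the share of each copy is uncertain.

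*Klk4*, a kallikrein protease best known from tooth enamel, was nearly absent in WT, with 5 and 0 counts, against 296 and 122 counts in *Cebpb*ΔM. *Tnfsf11* showed the same kind of pattern, with 8 and 0 counts in WT and 596 and 245 in *Cebpb*ΔM, and *Calca* had 4 and 6 against 75 and 164. The adjusted *P* values were 0.0157, 0.0111 and 0.0405 (edgeR), and with counts this low in WT the size of the change is poorly determined. In both WT libraries these genes lay under 1 CPM, so they passed the filter through *Cebpb*ΔM alone. Their *P* values thus follow a choice by the same values, and with no filter on low counts none of them was called. In a DESeq2 fit *Tnfsf11* missed the threshold (adjusted *P* = 0.0765). In the macrophage libraries these genes varied widely within a genotype, and the genotypes overlapped. WT macrophages had 244 and 1 counts of *Klk4*, 264 and 0 of *Tnfsf11* and 1020 and 36 of *Calca*. *Cebpb*ΔM macrophages had 0 to 133, 0 to 166 and 0 to 6218 counts, in the same order.

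**Figure D2:**
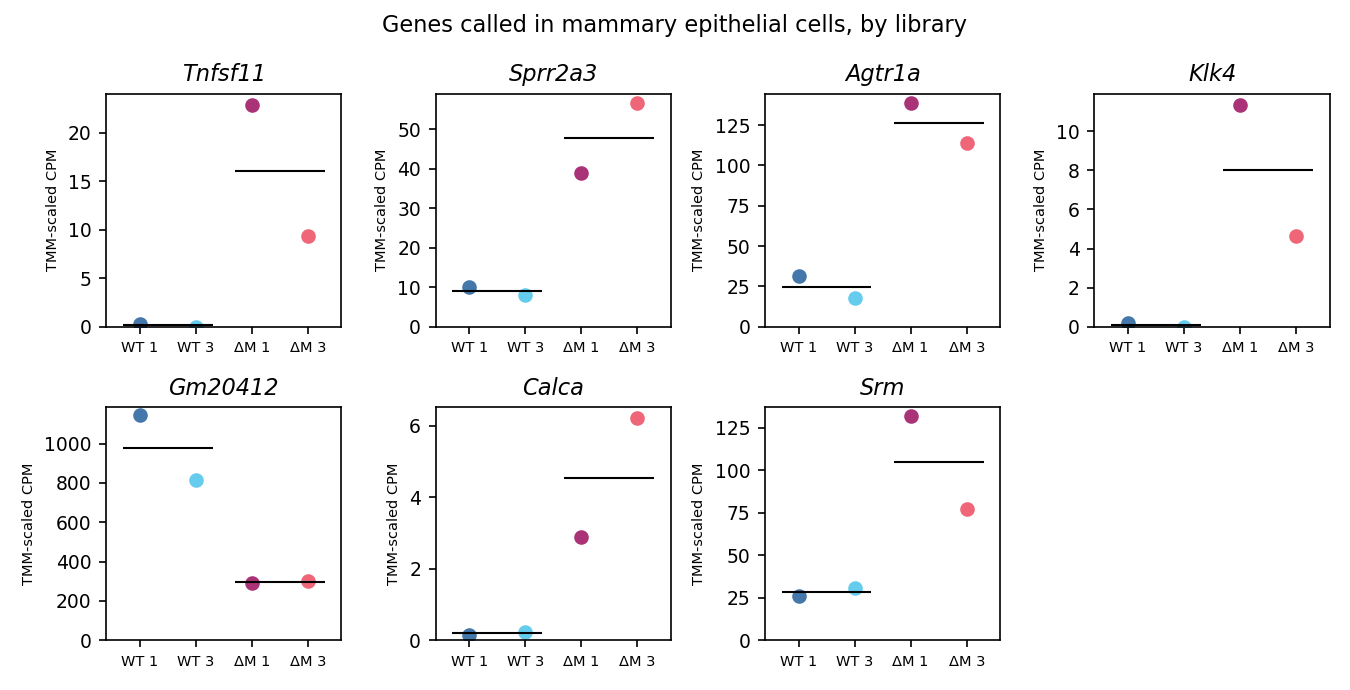
TMM-scaled CPM of 7 called genes in the 4 MEC libraries; points are libraries and bars are the mean of 2. In each panel both *Cebpb*ΔM libraries lie on the same side of both WT libraries.

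RefSeq promoters (GRCm38.p6, 250 bases before to 50 after the start) matched 4 of the 8 called genes by symbol. They are shown because these genes rose together, with the steroid receptor half-site AGAACA in capitals, searched on both strands (TGTTCT), and likewise the C/EBP-type letters TTGCNNAA (TTNNGCAA). The half-site occurs in 19.0% and the C/EBP-type letters in 10.8% of the 32851 promoters of the table. The *Klk4* window holds 1 half-site, and the letters searched are not in the windows of *Sprr2a3*, *Calca* and *Tnfsf11*, the last of which is not printed.
*Klk4*, chr7:43880910-43881209, + strand: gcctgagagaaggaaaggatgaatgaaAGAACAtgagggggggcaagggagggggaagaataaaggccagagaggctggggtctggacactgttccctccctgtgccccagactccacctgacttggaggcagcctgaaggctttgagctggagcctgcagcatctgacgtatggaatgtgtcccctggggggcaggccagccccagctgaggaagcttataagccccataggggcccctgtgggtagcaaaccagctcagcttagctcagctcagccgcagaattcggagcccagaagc
*Sprr2a3*, chr3:92285054-92285353, + strand: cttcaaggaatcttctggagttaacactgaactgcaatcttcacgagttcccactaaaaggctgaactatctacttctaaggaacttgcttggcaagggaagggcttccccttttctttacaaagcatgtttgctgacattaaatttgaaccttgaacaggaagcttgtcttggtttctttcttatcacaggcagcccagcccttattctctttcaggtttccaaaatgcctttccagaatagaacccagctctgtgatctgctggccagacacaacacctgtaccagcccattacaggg
*Calca*, chr7:114636308-114636607, − strand: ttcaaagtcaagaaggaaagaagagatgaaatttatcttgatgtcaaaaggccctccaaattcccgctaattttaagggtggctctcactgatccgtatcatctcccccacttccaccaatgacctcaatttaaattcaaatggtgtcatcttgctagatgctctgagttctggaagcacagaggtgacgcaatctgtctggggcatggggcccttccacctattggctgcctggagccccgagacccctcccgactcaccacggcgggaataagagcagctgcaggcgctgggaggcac

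*Gm20412* had 7538 and 7977 counts in *Cebpb*ΔM and 30081 and 21013 in WT, a 3.31-fold lower level (log2 −1.73 ± 0.24 SE, adjusted *P* = 0.0405, edgeR). *Tgm2*, which encodes transglutaminase 2, a protein crosslinking enzyme, covers it on the opposite strand and had 26887 and 28287 counts in *Cebpb*ΔM and 106426 and 71715 in WT. The ratio of *Gm20412* to *Tgm2* was 0.280, 0.282, 0.283 and 0.293 in the MEC libraries and 0.286 to 0.304 in the 6 macrophage libraries. The counts thus kept almost one ratio while *Tgm2* itself varied severalfold. The counting used the strand, but whether the library kit marks it is not stated in the sources used here, so reads of the overlapping genes may not be told apart. *Tgm2* was 3.24-fold lower in *Cebpb*ΔM (log2 −1.70 ± 0.28 SE) and did not pass the test (adjusted *P* = 0.0660, edgeR). *Rprd1b*, which also overlaps *Tgm2* on the other strand, was at 0.158 to 0.195 of its count in MECs and likewise missed the threshold (log2 −1.51 ± 0.25 SE). In macrophages *Tgm2* and *Gm20412* were also lower in *Cebpb*ΔM without overlap (log2 −0.94 ± 0.29 SE and −0.95 ± 0.28 SE), and neither passed (adjusted *P* = 0.264 and 0.244, edgeR). Their difference between cell types did not pass either (adjusted *P* = 0.968 for both, edgeR interaction), so the decrease was not shown to be particular to MECs.

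**Figure D3:**
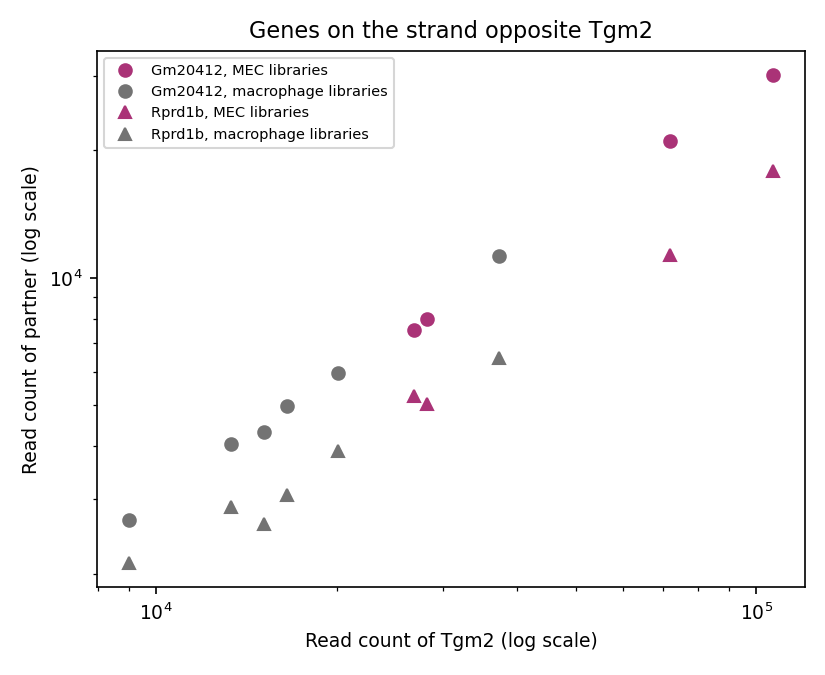
Counts of *Gm20412* (circles) and *Rprd1b* (triangles) against counts of *Tgm2*, both axes on a log scale, in the 4 MEC and 6 macrophage libraries. *Gm20412* stays at 0.280 to 0.304 of *Tgm2* in every library.

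At an unadjusted *P* under 0.05, 870 genes (5.54%) differed, 636 toward higher (4.05%) and 234 toward lower (1.49%) levels in *Cebpb*ΔM, and the genotypes did not overlap in 28.7% of genes, 15.4% toward higher and 13.3% toward lower levels. Genes described from here on did not pass the adjusted test, except where they are among the 8, and are given by their values. Of these, *Klk2-ps* and *Csn2* passed the filter through the *Cebpb*ΔM libraries alone, and *Gpat2* and *Tyrp1* through the WT libraries alone. The median GC content was 53.3% for the 636 higher genes, 48.8% for the 234 lower ones and 49.7% for all, and the median length 3298, 4356 and 3940 nt; the part of GC and length was not tested.

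**Figure D4:**
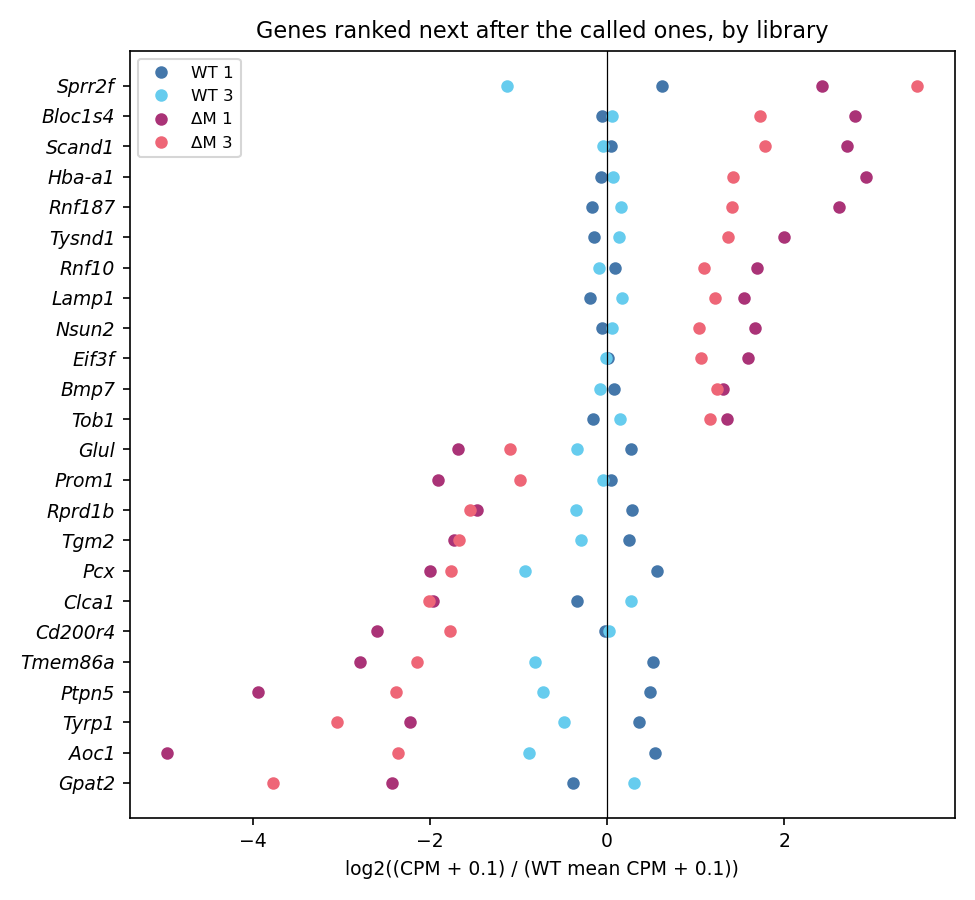
Level of 12 genes per direction, as log2 of (CPM + 0.1) over the WT mean plus 0.1, one point per library. They have the smallest *P* after the called ones among genes whose genotypes did not overlap. Numbered, clone and pseudogene symbols and genes the paper names were left out. The separation of the genotypes in each gene follows from this choice. *Cebpb*ΔM 1 is often the more distant library.

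*Eif3f*, a subunit of initiation factor 3, had 337 and 233 CPM in *Cebpb*ΔM and 112 and 111 CPM in WT. *Nsun2*, which methylates cytosine in tRNA, had 160 and 103 CPM against 48.2 and 52.1 CPM. The RING finger genes *Rnf10* and *Rnf187* had 265 and 175 CPM against 86.7 and 76.9 CPM, and 78.5 and 34.1 CPM against 11.3 and 14.1 CPM. *Tob1*, an antiproliferative protein that promotes mRNA deadenylation, had 151 and 132 CPM against 52.9 and 65.1 CPM. *Scand1*, *Tysnd1*, a peroxisomal protease, and *Bloc1s4*, of a complex for lysosome-related organelles, were likewise higher (log2 2.38, 1.73 and 2.43). The genes of this paragraph were chosen among those whose genotypes did not overlap. In these 8 genes *Cebpb*ΔM 1 was the higher library of its genotype, and without it the log2 difference of *Rnf187* went from 2.15 to 1.42 and that of *Bloc1s4* to 1.78. Among the next-ranked lower genes, *Gpat2* had 14 and 4 counts against 67 and 107, *Clca1* 49 and 48 against 159 and 239, and *Cd200r4*, a receptor of myeloid cells, 15 and 29 against 104 and 105.

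Amino acid and polyamine enzymes lay on both sides. Of 18 tested polyamine and arginine enzymes, 2 were higher and 1 lower at an unadjusted *P* under 0.05. *Arg1*, the arginase that yields ornithine for polyamine synthesis, had 82.6 and 60.5 CPM in *Cebpb*ΔM and 25.4 and 33.0 CPM in WT. *Aoc1*, which degrades diamines, had 0.499 and 3.57 CPM against 27.3 and 10.1 CPM. Of 17 enzymes of tryptophan, cysteine and glutamine metabolism 3 were higher and 2 lower. *Gclm*, a subunit of the enzyme that limits glutathione synthesis, had 32.5 and 27.4 CPM against 10.9 and 12.3 CPM, and *Cdo1*, the cysteine dioxygenase, 773 and 506 CPM against 286 and 244 CPM. *Glul*, the glutamine synthetase, had 287 and 430 CPM in *Cebpb*ΔM against 1115 and 731 CPM in WT. *Ido1*, which breaks down tryptophan, had 15.3 and 53.5 CPM against 108 and 156 CPM. Neither genotype overlapped the other in the enzymes named, which follows in part from their choice by small *P*. No overlap was seen in 6 of the 17 toward higher and 4 toward lower levels, and in 5 and 3 of the 18 (15.4% and 13.3% over all genes). The median log2 difference over the 17 enzymes was 0.11, or −0.03 without *Cebpb*ΔM 1. In WT macrophages *Aoc1* had 0.301 and 19.5 CPM and *Ido1* 2.01 and 59.1 CPM, and the macrophage genotypes overlapped in both.

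Of 25 tested ketone, pyruvate and fatty acid oxidation enzymes 1 was higher and 2 were lower at an unadjusted *P* under 0.05, and the median log2 difference was −0.06, beside −0.01 for all genes. *Pcx*, the pyruvate carboxylase, had 38.9 and 45.6 CPM in *Cebpb*ΔM and 229 and 81.7 CPM in WT (log2 −1.88 ± 0.38 SE, or −0.95 without WT 1). *Pdk4*, a kinase that shuts off pyruvate dehydrogenase, had 86.9 and 74.1 CPM against 159 and 88.9 CPM.

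Secreted regulators of growth factors were among the higher values. Of 16 genes of the insulin-like growth factor axis 5 were higher and none lower at an unadjusted *P* under 0.05 (4.05% and 1.49% over all genes), and all 5 encode binding proteins or a protease that cuts them. Without overlap, 7 of the 16 were higher and 5 lower (15.4% and 13.3% over all genes). The binding protein gene *Igfbp5*, with 33.4% of the list's counts, overlapped at 437 and 676 CPM in *Cebpb*ΔM and 743 and 567 CPM in WT, without TMM scaling. *Igfbp3* had 68.2 and 84.5 CPM in *Cebpb*ΔM and 34.7 and 31.9 CPM in WT, and *Igfbp2* had 95.7 and 78.9 CPM against 23.1 and 40.3 CPM. The receptor genes *Igf1r* and *Insr* had log2 differences of −0.31 and −0.26, and the median over the list was 0.0021. Of 33 genes of the TGF-β and BMP axis 5 were higher and none lower. *Bmp7*, a secreted BMP ligand, had 61.7 and 58.9 CPM against 26.3 and 23.5 CPM (log2 1.28 ± 0.22 SE, adjusted *P* = 0.0660, edgeR). The BMP antagonist *Nbl1* had 66.5 and 24.8 CPM against 11.1 and 11.5 CPM (log2 2.01, or 1.13 without *Cebpb*ΔM 1), and *Fst*, the activin-binding follistatin, had 90.3 and 68.8 CPM against 44.8 and 45.8 CPM.

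Among 23 receptors for peptide hormones and neuropeptides, 4 were higher and 1 lower at an unadjusted *P* under 0.05, with *Agtr1a* the one that passed the test. *Vipr1*, a receptor for vasoactive intestinal peptide, had 82.9 and 55.3 CPM in *Cebpb*ΔM and 31.1 and 28.0 CPM in WT. *Cntfr* had 12.7 and 2.01 CPM against 2.74 and 0.776 CPM, so its groups overlapped, and its log2 difference of 2.06 was 0.19 without *Cebpb*ΔM 1.

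Barrier and secretory genes were mixed. Of 7 cornified envelope and serpin genes tested, 3 were higher and 1, *Tgm2*, lower at an unadjusted *P* under 0.05. *Sprr2f*, 73782 bases from *Sprr2a3*, had 6.07 and 12.9 CPM in *Cebpb*ΔM and 1.67 and 0.427 CPM in WT, and *Serpinb11* had 15.9 and 27.7 CPM against 7.72 and 3.69 CPM. *Sprr1a* overlapped between genotypes, at 153 to 292 CPM. The pseudogene *Klk2-ps*, 30450 bases from *Klk4*, had 78 and 28 counts in *Cebpb*ΔM and none in either WT library, at least 17.5-fold higher against a floor of 3 counts in each WT library. *Klk11* had 1.38 and 0.645 CPM against 2.05 and 3.34 CPM, and the other kallikreins tested, *Klk6*, *Klk7*, *Klk8* and *Klk10*, had log2 differences below 0. Of 12 antimicrobial and mucosal defense genes 1 was higher and 2 lower, with *Defb1*, a beta-defensin, at 11.9 and 9.45 CPM against 2.74 and 0.349 CPM, and *Dmbt1*, a mucosal scavenger receptor, at 2 and 90 counts against 315 and 216. Of 16 milk genes 3 were higher, *Csn2*, *Cel* and *Csn1s1*, and the list's median of 0.07 was −0.62 without *Cebpb*ΔM 1. *Csn2* (β-casein) had 4.49 and 1.06 CPM against 0.760 and 0.621 CPM.

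Of 40 ribosome biogenesis genes, 38 had a log2 difference above 0 (48.6% over all genes), the genotypes did not overlap in 17 toward higher and in none toward lower levels (15.4% and 13.3% over all genes), and 4 were higher at an unadjusted *P* under 0.05. The median log2 difference was 0.18 (0.16 without *Cebpb*ΔM 1). *Srm* is counted in this list as well as in the polyamine list, and the other 3 were *Rrs1* (88.7 and 74.0 against 21.8 and 45.2 CPM), *Fbl* (77.7 and 59.9 against 44.4 and 33.7 CPM), which methylates ribosomal RNA, and *Gar1*. Nuclear genes of oxidative phosphorylation had a log2 difference above 0 in 65 of 73, with no overlap in 33 toward higher and 1 toward lower, and none reached an unadjusted *P* under 0.05. Their median log2 difference was 0.14, or 0.07 without *Cebpb*ΔM 1. The 78 cytosolic ribosomal proteins had a median of 0.06.

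Cell cycle and interferon lists lay lower, and both depended on single libraries. Of 40 genes of DNA replication and mitosis 1 was higher and 8 lower at an unadjusted *P* under 0.05, and the median was −0.51. It was 0.09 without WT 1 and −0.87 without WT 3. *Bub1b*, a mitotic checkpoint kinase, had 5.68 and 4.21 CPM in *Cebpb*ΔM and 18.3 and 6.98 CPM in WT (log2 −1.35, or −0.50 without WT 1). Interferon-stimulated genes had a median of −0.43 over 40 genes, −0.91 without *Cebpb*ΔM 1 and 0.24 without WT 3, and 1 of them, *Ifit2* (2.30 and 1.82 against 4.45 and 5.35 CPM), had an unadjusted *P* under 0.05.

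**Figure D5:**
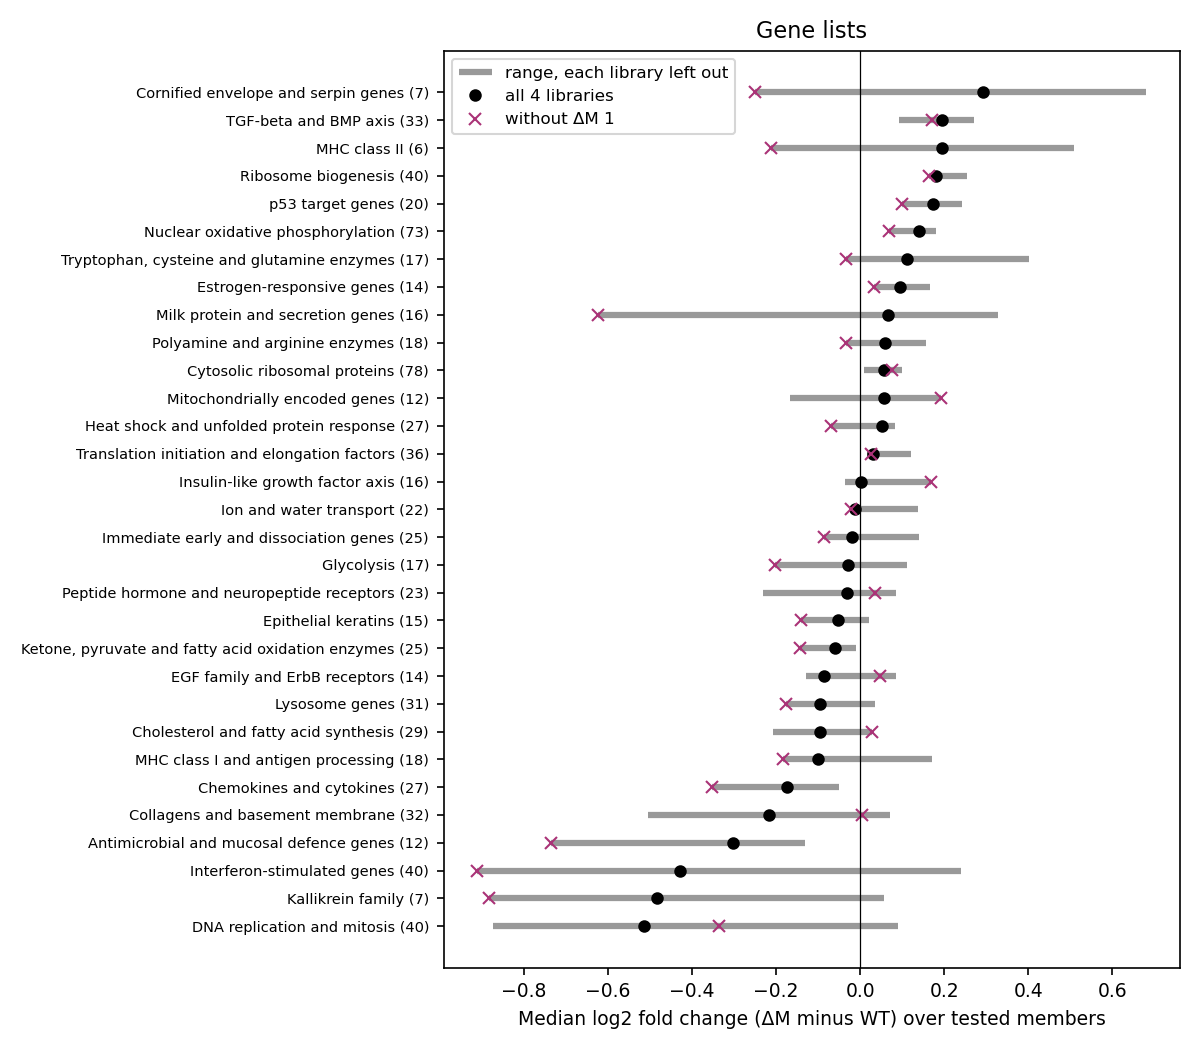
Median log2 fold change over the tested members of each gene list (number in brackets); dots use the 4 libraries, crosses leave out *Cebpb*ΔM 1 and bars span the values with each library left out in turn. Ribosome biogenesis keeps a positive median of 0.16 to 0.25. Others stay above 0 as well, such as nuclear oxidative phosphorylation (0.07 to 0.18) and the TGF-β and BMP axis (0.09 to 0.27). The bars for DNA replication and interferon-stimulated genes cross 0.

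Of 31 lysosome genes 5 were higher and none lower at an unadjusted *P* under 0.05, although the median was −0.09. *Lamp1*, a major lysosomal membrane protein, had 125 and 99.7 CPM in *Cebpb*ΔM and 37.4 and 48.1 CPM in WT (adjusted *P* = 0.0660, edgeR). *Grtp1* overlaps *Lamp1* on the opposite strand and was also higher (log2 1.02 ± 0.23 SE). In ion transport, *Atp1b1*, a sodium pump subunit, had 179 and 134 CPM against 44.6 and 93.6 CPM, and the sodium channel subunit *Scnn1a* had 92.1 and 67.2 CPM against 42.7 and 53.5 CPM.

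The remaining function lists had medians of −0.22 to 0.19. Of 36 translation factors 1 was higher at an unadjusted *P* under 0.05, *Eif3f* (median 0.03), and of 12 mitochondrially encoded genes none (median 0.06). Glycolysis (17 genes, median −0.03), the EGF family (14 genes, median −0.09) and MHC class II (6 genes, median 0.19) held no gene under that threshold in either direction. Of 29 cholesterol and fatty acid genes 1 was lower, the desaturase *Scd1* at 100 and 95.6 CPM against 176 and 113 CPM (median −0.10). Of 18 genes of MHC class I and antigen processing 1 was higher, *B2m*, its light chain, at 1982 and 1318 CPM against 771 and 1016 CPM (median −0.10). Of 25 immediate early genes 2 were higher, *Dusp1* and *Maff* (median −0.02), of 27 heat shock and unfolded protein genes 2, *Trib3* and *Chac1* (median 0.05), and of 20 p53 targets 1, *Phlda3* at 48.0 and 22.8 CPM against 13.2 and 10.9 CPM (median 0.17). Of 14 estrogen-responsive genes 1, *Igfbp4*, was higher (median 0.10). Among 15 epithelial keratins *Krt15*, a basal keratin, was higher at 263 and 393 CPM against 232 and 116 CPM, and *Krt4* (20.1 and 24.1 against 43.6 and 41.5 CPM) and *Krt23* were lower (median −0.05). Of 27 chemokines and cytokines 2 were lower, *Lif* at 80.8 and 73.3 CPM against 135 and 92.0 CPM, and *Cxcl15* (median −0.17). Of 32 collagen and basement membrane genes 1 was higher, *Crtap*, which takes part in collagen prolyl hydroxylation, at 43.7 and 34.3 CPM against 12.3 and 18.3 CPM (median −0.22, or 0.0050 without *Cebpb*ΔM 1). Of 22 ion and water transport genes 3 were higher and 1 lower (median −0.01).

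As lists, epithelial subtype markers had medians of 0.02 for hormone-sensing, −0.13 for luminal progenitor, −0.02 for basal and −0.05 for pan-luminal markers. Members went both ways, with 6 of 12, 3 of 12, 5 of 12 and 3 of 8 above 0, in that order. At an unadjusted *P* under 0.05, 2 hormone-sensing markers were higher and 1 lower, and 2 luminal progenitor markers were lower. Under the same threshold 1 basal and 1 pan-luminal marker were higher and none lower. *Prom1*, a surface marker of hormone-sensing cells, had 68.7 and 131 CPM in *Cebpb*ΔM and 267 and 252 CPM in WT, and *Kit*, a marker of luminal progenitors, had 68.2 and 150 CPM against 193 and 182 CPM (log2 −0.78, or −0.32 without *Cebpb*ΔM 1). *Lgr6*, a basal marker, had 94.5 and 103 CPM against 53.5 and 60.7 CPM. In bulk samples, fewer cells of a type and less RNA per cell cannot be told apart.

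Of 7 tested hair follicle and skin keratinocyte genes 4 were lower at an unadjusted *P* under 0.05, and the list summed to 21.9 and 38.3 CPM in *Cebpb*ΔM and 94.8 and 45.3 CPM in WT. The median was −2.18, or −0.33 without WT 1. *Krt35*, a hair keratin, had 1 and 43 counts against 129 and 164. The 5 tested melanocyte genes were each lower without overlap (13.3% over all genes), with log2 differences of −2.98 to −0.31. Of these 1 had an unadjusted *P* under 0.05, *Tyrp1*, at 9 and 4 counts against 68 and 36. The melanocyte list summed to 11.3 and 13.2 CPM against 20.5 and 16.8 CPM. Erythroid markers summed to 126 and 63.5 CPM in *Cebpb*ΔM and 29.4 and 35.6 CPM in WT, and 70.8% of it was *Hba-a1*, an α-globin gene. The other 7 markers summed to 16.8 and 21.9 CPM against 15.4 and 20.2 CPM, so they overlapped. *Hba-a1* had 2958 and 1051 counts in *Cebpb*ΔM and 371 and 401 in WT (log2 2.37, or 1.43 without *Cebpb*ΔM 1). Its near-identical copy *Hba-a2* had 84 and 109 counts against 66 and 97, and *Hbb-bs* overlapped at 7.11 to 10.7 CPM. The macrophage gene *Csf1r* was higher at 16.2 and 19.1 CPM against 9.62 and 8.38 CPM. The macrophage markers went both ways, and 2 of the 5 tested had a log2 difference above 0. Of the 5, 2 were higher and 2 lower without overlap (15.4% and 13.3% over all genes). Their median log2 difference was −0.19, or 0.21 without *Cebpb*ΔM 3. The sum of the macrophage list overlapped between genotypes, but without *Cd14* it did not, as given above. Endothelial markers summed to 118 and 157 CPM in *Cebpb*ΔM and 168 and 130 CPM in WT, pericyte markers to 74.4 and 131 CPM against 125 and 103 CPM, and Schwann cell markers to 547 and 817 CPM against 670 and 531 CPM, so each overlapped between genotypes. Adipocyte markers summed to 55.2 and 61.4 CPM against 66.4 and 68.8 CPM and skeletal muscle markers to 13.0 and 14.8 CPM against 12.9 and 10.2 CPM. Neutrophil and mast cell markers summed to 66.7 and 157 CPM against 192 and 182 CPM, nearly all of it *Kit*, with *S100a9*, *Ly6g* and *Mcpt4* at 0 counts in the MEC libraries. The part of these cells in the results was not tested.

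Some of the smallest *P* values belonged to neighbors. *Tmem86a* and *Ptpn5*, 23018 bases apart on chromosome 7 (47050601 to 47133684), had 28.9 and 45.5 CPM against 289 and 114 CPM and 7.30 and 21.5 CPM against 158 and 68.4 CPM. *Tmem86a* encodes a lysoplasmalogenase and *Ptpn5* a tyrosine phosphatase, and both were lower (log2 −2.44 ± 0.39 SE and −2.97 ± 0.48 SE, adjusted *P* = 0.0660, edgeR). Both were chosen among genes without overlap in MECs. In macrophages *Tmem86a* had 22.3 and 98.4 CPM in WT and 41.1 to 78.1 CPM in *Cebpb*ΔM. *Ptpn5* had 7.02 and 88.6 CPM in WT macrophages and 0.153 to 25.2 CPM in *Cebpb*ΔM macrophages, so both genes overlapped there. In all, 13 pairs of genes within 1 Mb had an unadjusted *P* under 0.001 in both members, and 12 of the pairs shared a direction. Several of them overlap on opposite strands, such as *Teddm2* and *Glul*, so their reads may not be told apart. The pairs among *Tgm2*, *Gm20412* and *Rprd1b* share a locus. Genes at an unadjusted *P* under 0.05 were more often higher (636) than lower (234). Whether neighbors share a direction more often than other genes was not tested.

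The genotype difference in MECs was compared with that in macrophages by an interaction over the 10 libraries and 18323 genes. EdgeR's quasi-likelihood test of this difference called no gene (0.0%), 962 had an unadjusted *P* under 0.05 (5.25%), and the likelihood ratio test called 53. *Agtr1a* had 44.3 to 61.7 CPM in *Cebpb*ΔM macrophage libraries and 131 and 54.6 CPM in WT, and its log2 interaction was 3.08 ± 0.49 SE (adjusted *P* = 0.410, edgeR). Its macrophage genotypes overlapped. The fit over 10 libraries called no gene in MECs either (0.0%), with 495 at an unadjusted *P* under 0.05.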

How the data were processed

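RNA was sequenced from MECs and macrophages. The authors used Trimmomatic (version 0.33) for adaptor removal, HISAT2 (version 2.1.0) for alignment to GRCm38, and featureCounts (version 1.6.2, reverse-strand setting, minimum mapping quality 10) for read pairs per gene of Ensembl release 100. The deposited values are raw whole-number counts per gene. The counting command also names a replicate 2 of each MEC genotype, not analysed here. From the counts, genes under 300 nt or without over 1 CPM in 2 libraries were left out, and edgeR (version 4.0.16, R version 4.3.3) was run with TMM scaling and its quasi-likelihood test, with Benjamini–Hochberg adjustment over all genes tested; the study names the likelihood ratio test, run here as an alternative. CPM of single genes are on the TMM scale, and CPM summed over a list use the library totals without TMM. SEs are those of log2 fold changes. DESeq2 (version 1.42.0) was an alternative. The script for the test was tested on simulated data. Genes were named if called, if among the 12 smallest *P* values per direction without overlap (no numbered, clone or pseudogene symbols and no gene the paper names), among up to 4 members of each of 47 lists, or within 1 Mb of another gene with an unadjusted *P* under 0.001. *Sprr2a1*, *Sprr2a2*, *Tmem189*, *Cebpb*, the receptors *Igf1r* and *Insr* and other list members named beside a count were added after their values were seen. Of the genes so chosen, 1 called gene and 1 marker are not reported here. Members and lists were chosen with earlier results of these data known. Of 998 listed genes, 996 were matched by symbol. With 2 libraries per genotype, an exact permutation test cannot go below 0.333, two-sided.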

Additional observations from a re-analysis of the deposited data

How the results depend on the processing

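The number of genes called in MECs, 8 (7 higher and 1 lower), depended on the fit. It was 179 (145 and 34) with edgeR's likelihood ratio test, 161 (131 and 30) with DESeq2, 5 (5 and 0) with filterByExpr, and 0 with no filter on low counts (1139 of 29117 genes at an unadjusted *P* under 0.05) or with all 10 libraries in one fit. With the replicate number as a block it was 229 (183 and 46) in the quasi-likelihood test and 243 (191 and 52) in the likelihood ratio test; deviations of same-numbered libraries correlated at 0.11, and with 2 pairs the libraries share only a number. RLE scaling and the older quasi-likelihood fit gave 6 and 8. Leaving out each library in turn gave 5 to 354 calls (2 to 262 higher, 3 to 92 lower): 47 without *Cebpb*ΔM 1, 354 without *Cebpb*ΔM 3, 98 without WT 1 and 5 without WT 3, the remaining lone library being assumed to vary like the other genotype. Without WT 3, 1 of the 8 genes was still called, *Tnfsf11*; without either *Cebpb*ΔM library 5 passed the filter and all 5 were called. For the difference between cell types the count was 0, 53 with the likelihood ratio test, 4 with the replicate block and 0 to 2 with a library left out, 2 without macrophage WT 5. With a MEC library left out, the sign turned for 33 of 47 list medians and for 40 of the 215 genes chosen by the naming rules, none of them called. Among these, *Cldn4* (−0.091 to 1.28) moved by over 2 SE and 9 list medians turned by more than the spread between replicates, with ranges over the 4 leave-outs of −0.26 to 0.15 for hormone-sensing markers, −0.27 to 0.21 for macrophage markers, −0.13 to 1.42 for skeletal muscle, −0.035 to 0.40 for tryptophan, cysteine and glutamine enzymes, −0.62 to 0.33 for milk genes, −0.88 to 0.057 for kallikreins, −0.25 to 0.68 for cornified envelope genes, −0.13 to 0.085 for the EGF family and −0.022 to 0.14 for ion transport. The cause was not tested.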
